A study of Mus musculus with 5 samples.

Results

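The genes of MHC class I antigen presentation described here, H2-K1, H2-D1, B2m, Tap1, Tap2, Tapbp, Psmb8, Psmb9, Psmb10 and Nlrc5, are 10 genes picked by symbol from the 54699 of the deposited table, and each was found there. FPKM counts fragments per kilobase of gene length, scaled to library depth. The deposited gene length can exceed that of a transcript, so levels of different genes can be set side by side only roughly. For H2-K1 it is 2608 bases, while the longest annotated transcript has 1874. Of the 10 genes, 7 had an FPKM of 1 or more in some library, as did 12842 genes in all, and these were compared. Psmb8, Psmb9 and Nlrc5 stayed under that level in every library and are described by their reads. The cells were B16F10, an established mouse melanoma line, and every culture received lentivirus. Forced expression of Myod1, which drives the skeletal muscle programme, and of Pparg, which drives fat cell differentiation, lasted until day 8, and the control with the empty expression vector was taken on the same day. Cells with Setdb1 knockdown by a short hairpin RNA (shSetdb1), directed at a histone H3 lysine 9 methyltransferase, were collected on day 7, as was the control with the empty knockdown vector (shCtrl). All groups grew in DMEM with serum, the controls are labelled wild type, and no agent such as interferon is named for any group.

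Each group had 1 library, so no difference has a replicate check and no test between conditions was possible. The intervals given are 95% intervals of counting error, and PCR reads are not independent molecules. Forced Myod1 and forced Pparg share the same control library. The libraries held 16214802 to 18300670 reads assigned to genes. Myod1 had an FPKM of 260.1 in the library meant to express it and 0 reads in the other 4, Pparg had 44.4 and 0 reads elsewhere, and Setdb1 in the knockdown was at 8.83% of its control. The 7 melanocyte markers, Mlana, Pmel, Tyr, Tyrp1, Dct, Mitf and Sox10, were detected in every library, with a summed FPKM of 3110 with Myod1, 2195 with Pparg, 7583 in their control, 8985 with the Setdb1 knockdown and 8222 in its control. The 11 leukocyte markers summed to an FPKM of 1.15 to 2.64, most of it Lyz2, and Cd3e, Cd8a and Nkg7 had 0 reads in all 5 libraries. The 4 endothelial markers summed to 0.0192 to 0.596.

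Class I molecules show fragments of a cell's own proteins to cytotoxic T cells. The proteasome cuts proteins into peptides, and its catalytic subunits can be replaced by the inducible subunits of the immunoproteasome. The transporter made of Tap1 and Tap2 carries peptides into the endoplasmic reticulum, where tapasin (Tapbp) holds the transporter next to a heavy chain paired with beta-2-microglobulin (B2m) until a peptide is bound. Nlrc5 is a transactivator that acts through the X and Y boxes of class I promoters, and interferons and NF-kappaB also act on these genes. Low class I levels in B16 melanoma that rise with interferon gamma are textbook knowledge.

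The promoters of the heavy chains and the light chain are shown because they carry these elements side by side. RefSeq promoters (GRCm38.p6, 250 bases before to 50 after the start site) were matched for 8 of the 10 genes, all but Tap2 and Nlrc5. Capitals mark, in these windows, the NF-kappaB consensus, the core AANNGAAA bound by interferon regulatory factors, the X2 half-site TGACG and the Y box ATTGG, each searched on both strands. The windows lie at chr2:122147540-122147648 on the plus strand for B2m, chr17:34000349-34000468 on the minus strand for H2-K1 and chr17:35262913-35263032 on the plus strand for H2-D1.
B2m: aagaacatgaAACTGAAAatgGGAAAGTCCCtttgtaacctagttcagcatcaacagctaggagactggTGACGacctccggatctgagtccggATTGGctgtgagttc
H2-K1: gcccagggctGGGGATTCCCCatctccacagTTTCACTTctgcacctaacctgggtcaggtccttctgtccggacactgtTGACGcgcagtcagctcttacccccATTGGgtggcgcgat
H2-D1: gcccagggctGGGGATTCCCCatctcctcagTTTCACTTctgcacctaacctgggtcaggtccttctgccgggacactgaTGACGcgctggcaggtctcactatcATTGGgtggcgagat

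In the heavy chain windows the core reads on the opposite strand, and the order of the upstream elements differs from B2m. The H2-K1 and H2-D1 windows were identical at 108 of 120 bases (90.0%). The X2 half-site followed by the Y box after exactly 20 bases was found in the promoters of 27 of 27025 genes (0.0999%), 3 of them these. Alone, and overlapping that pair, ATTGG was in 41.1% of all promoters and in 6 of the 8 matched, and TGACG in 23.05% and 5 of the 8. The core AANNGAAA was in 26.7% and the NF-kappaB consensus in 9.55% of all promoters, and each in the same 3 of the 8. The interferon gamma element TTCNNNGAA was in 9.55% of all promoters and, of the 8, in Psmb8 alone. The spaced pair with both other elements occurred in 5 genes: B2m, H2-D1, H2-K1, H2-M3 and Nrarp. The motifs and the spacing were chosen after the sequences were seen, and a match describes letters, not binding.

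By position (GRCm38), 7 of the 10 genes lie in the MHC on chromosome 17. These are Tapbp (33915899 to 33929288, plus strand), H2-K1 (33996017 to 34000333, minus), Psmb9 (34181988 to 34187764, minus), Tap1 (34187553 to 34197225, plus), Psmb8 (34197721 to 34201454, plus), Tap2 (34203527 to 34216321, plus) and H2-D1 (35262730 to 35267499, plus). Psmb9, Tap1, Psmb8 and Tap2 lie side by side within 34.3 kb, and Tap1 and Psmb9 start on opposite strands with 225 bases between their RefSeq start sites. Nlrc5 (94434356 to 94527272, plus) and Psmb10 (105935735 to 105938444, minus) are on chromosome 8 and B2m (122147686 to 122153083, plus) is on chromosome 2. The labels do not say whether counting used strand. B2m overlaps Patl2, which had an FPKM of at most 0.653, and Tap1 and Psmb9 overlap by 212 bases. Tapbp overlaps Zbtb22 on the same strand over 3421 bases, and reads there may not be told apart. Zbtb22 ends at 33919324, before the RefSeq start site of Tapbp (promoter window 33919228 to 33919527). The overlap thus comes from the longer Tapbp gene of the deposited table. Zbtb22 had an FPKM of 23.1 with Myod1, 17.1 with Pparg, 16.8 in their control, 25.8 with the knockdown and 11.97 in its control, above Tapbp in the Myod1 library and in the empty expression vector control.

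With forced Pparg, 6 of the 7 compared genes were at least 2-fold higher than in the control, all but H2-K1, and 0 were lower, where 4.22% of all compared genes were higher, 2.30% lower and 6.52% changed in either direction. Against both controls the count was also 6, beside 3.34% of all genes. With forced Myod1 only H2-K1 was higher and 0 were lower, where 14.0% of all genes were higher, 7.55% lower and 21.6% either; H2-K1 was also higher against both controls, beside 11.9%. With the Setdb1 knockdown H2-K1 and Tapbp were higher and 0 lower, where 9.34% of all genes were higher, 10.3% lower and 19.7% either. A gene was counted as 2-fold at a log2 ratio of FPKM + 1 of at least 1, which understates the ratio of low genes. Tap2 passed the level filter only through the Pparg and knockdown libraries. Among list genes called higher further on, the same held for Oasl2, Irf7 and Cd74, so their calls are partly built into the filter. Fewer cells with a given RNA and less RNA per cell cannot be told apart in bulk RNA.

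**Figure D1:**
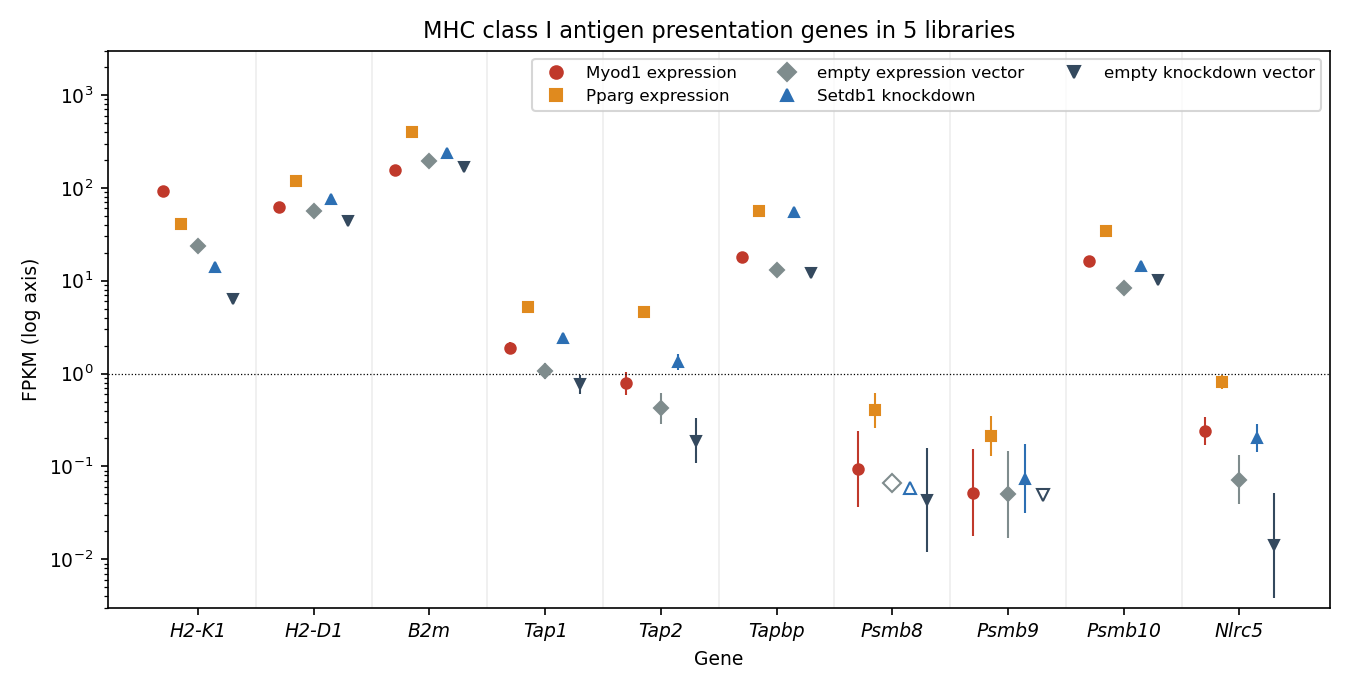
FPKM on a log axis of the 10 genes in the 5 libraries. Bars are 95% Wilson intervals of counting error, open symbols have 0 reads and stand at the FPKM of 3 reads, and the dotted line marks an FPKM of 1. B2m and H2-D1 are high in all libraries and Psmb8 and Psmb9 lie under 1 everywhere.

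The classical heavy chain H2-K1 had an FPKM of 92.3 with Myod1, 41.2 with Pparg, 23.9 in the empty expression vector control, 14.2 with the Setdb1 knockdown and 6.33 in the empty knockdown vector control. It was the only one of the 10 highest with Myod1, and the knockdown lay between the controls. The ratio to its own control was 3.86 (3.60 to 4.14) with Myod1, 1.73 (1.60 to 1.86) with Pparg and 2.24 (1.94 to 2.58) with the knockdown. The controls differed from each other: for H2-K1 the empty expression vector was 3.78-fold above the empty knockdown vector. By plain FPKM ratio Tap2 was also 2.22-fold apart, from 26 and 12 reads. On the scale of FPKM + 1, H2-K1 was the only one of the 7 genes at least 2-fold apart there, lower with the empty knockdown vector. Of all compared genes, 1.44% were lower there, 1.23% higher and 2.67% either. Set against the empty expression vector, H2-K1 in the knockdown was at 0.593 (0.538 to 0.654), so its direction there depends on which control is used. Its log2 ratio of 1.05 also dropped under the limit with FPKM sums (0.98), with scaling to the 75th percentile (0.97) and with GC bins centred (0.79). Against the empty knockdown vector, H2-K1 was at 14.6 (12.9 to 16.5) with Myod1 and 6.51 (5.74 to 7.41) with Pparg, the latter past the limit. The vector and the day of collection both differ between the controls and cannot be told apart.

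The other classical heavy chain, H2-D1, had an FPKM of 62.9, 119 and 55.7 with Myod1, Pparg and their control, and of 75.7 and 43.6 with the knockdown and its control. It was highest with Pparg, at 2.14 (2.04 to 2.25) times the control. The knockdown was at 1.74 (1.64 to 1.84) times its control, under the 2-fold limit. With Myod1 the ratio was 1.13 (1.07 to 1.19), and its log2 ratio of 0.17 became -0.21 when each library was divided by its FPKM sum. The 2 heavy chains thus had different orders over the libraries: H2-K1 was at 1.47 times H2-D1 with Myod1, at 0.345 with Pparg, 0.429 in their control, 0.187 with the knockdown and 0.145 in its control. Only with Myod1 was H2-K1 the higher of the pair. Of the 50-base stretches of the longest transcripts, 8.11% of those of H2-K1 and 11.98% of those of H2-D1 occur in another H2 gene, and of the 100-base stretches 0% and 4.44%.

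B2m, the light chain that every class I heavy chain needs, had the highest FPKM of the 10 in all 5 libraries. Its FPKM was 154 with Myod1, 400.4 with Pparg, 194.0 in their control, 235 with the knockdown and 169 in its control. The ratio was 2.06 (1.97 to 2.16) with Pparg, 1.39 (1.32 to 1.47) with the knockdown and 0.796 (0.752 to 0.843) with Myod1, so only Pparg passed the limit. With GC bins centred, the log2 ratio of B2m moved from -0.33 to -0.03 with Myod1. It moved from 0.48 to 0.98 with the knockdown and from 1.04 to 1.21 with Pparg. With FPKM sums it was -0.72 with Myod1. Divided by the sum of H2-K1 and H2-D1, B2m was at 0.995 with Myod1, 2.49 with Pparg, 2.44 in their control, 2.61 with the knockdown and 3.37 in its control. The Myod1 library was the one with the lowest ratio of light chain to heavy chain RNA.

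The transporter genes were low. Tap1 had an FPKM of 1.89 with Myod1, 5.28 with Pparg, 1.07 in their control, 2.42 with the knockdown and 0.764 in its control. Tap2 had 0.791, 4.62 and 0.421 in the first 3 libraries and 1.34 and 0.190 in the knockdown and its control, the last from 12 reads. Both were highest with Pparg, next with the knockdown and lowest in the knockdown control. With Pparg the ratio was 4.92 (3.95 to 6.17) for Tap1 and 11.0 (7.36 to 17.1) for Tap2. With the knockdown it was 3.16 (2.42 to 4.19) and 7.08 (3.87 to 14.2), while the log2 ratios of FPKM + 1, 0.95 and 0.98, were just short of the limit. With Myod1 the ratios were 1.76 (1.36 to 2.29) and 1.88 (1.14 to 3.16). The ratio of Tap1 to Tap2 was lowest with Pparg, at 1.14 (0.995 to 1.31), compared with 2.55 (1.64 to 4.10) in the control.

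Tapbp, the peptide-loading chaperone tapasin, separated the libraries into a high and a low set. It had an FPKM of 56.4 with Pparg and 55.0 with the knockdown, and of 18.0 with Myod1, 13.2 in the empty expression vector control and 12.2 in the empty knockdown vector control. The ratio was 4.27 (3.94 to 4.64) with Pparg and 4.52 (4.16 to 4.92) with the knockdown. On the scale of FPKM + 1, Tapbp was the only one of the 7 at least 2-fold higher in the knockdown against both controls, where 5.80% of all genes were. By plain FPKM ratios Tap1 (3.16 and 2.25) and Tap2 (7.08 and 3.19) were also more than 2-fold higher against both. Zbtb22, which shares bases with Tapbp, was at least 2-fold higher than its own control in the knockdown, but not against the other control (25.8 against 16.8), and its part in the Tapbp value was not tested. With Myod1 the Tapbp ratio was 1.36 (1.24 to 1.51).

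**Figure D2:**
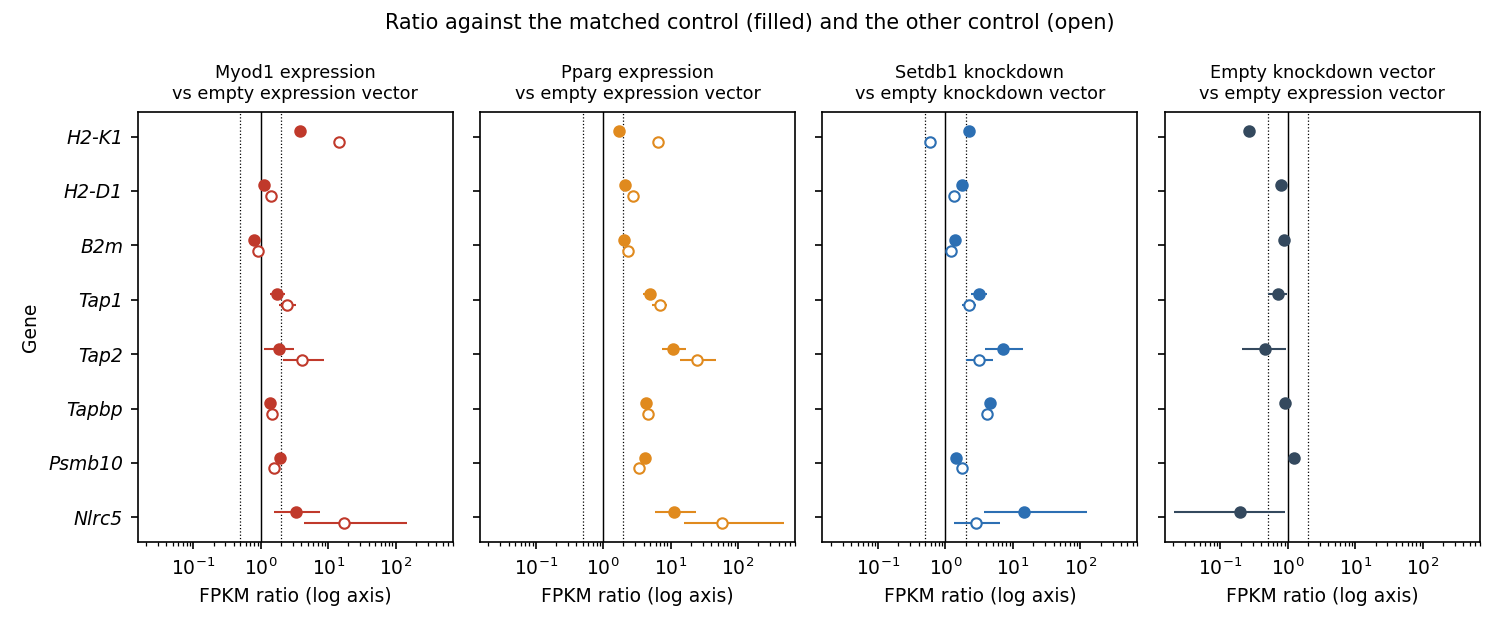
FPKM ratio of treated to control library on a log axis for 8 genes, with Psmb8 and Psmb9 left out for their few reads. Filled symbols use the matched control and open ones the other control, bars are 95% exact counting intervals, and dotted lines mark 0.5 and 2. For H2-K1 in the knockdown the filled and open symbols fall on opposite sides of 1.

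Of the 3 inducible subunits of the immunoproteasome, only Psmb10 was expressed at a level that could be compared. Psmb10 had an FPKM of 16.3 with Myod1, 34.6 with Pparg, 8.37 in their control, 14.5 with the knockdown and 10.3 in its control. The ratio was 4.14 (3.59 to 4.78) with Pparg, 1.94 (1.65 to 2.29) with Myod1 and 1.41 (1.21 to 1.64) with the knockdown. Psmb8 had 4, 21, 0, 0 and 2 reads in the order Myod1, Pparg, their control, knockdown and its control, and Psmb9 had 3, 15, 3, 5 and 0. Against 3 reads, Psmb8 with Pparg was at least 5.97-fold higher than the control, while for Psmb9 the ratio was 4.26 (1.21 to 22.96). In the libraries with 0 reads, 3 reads of Psmb8 would be an FPKM of 0.0671 and 0.0593.

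The inducible subunits replace Psmb5, Psmb6 and Psmb7 at the same sites of the proteasome. Relative to Psmb7, Psmb10 stood at 29.9% with Myod1, 78.1% with Pparg, 18.7% in their control, 29.7% with the knockdown and 22.6% in its control. The other 2 pairs were far apart: Psmb8 was at most 0.201% of Psmb5 and Psmb9 at most 0.191% of Psmb6, both with Pparg. By FPKM, the Pparg library therefore held Psmb10 at 78.1% of Psmb7 and almost none of the other inducible subunits. In reads Psmb10 had 1131 and Psmb7 2906, so the 78.1% depends on the deposited gene lengths.

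**Figure D3:**
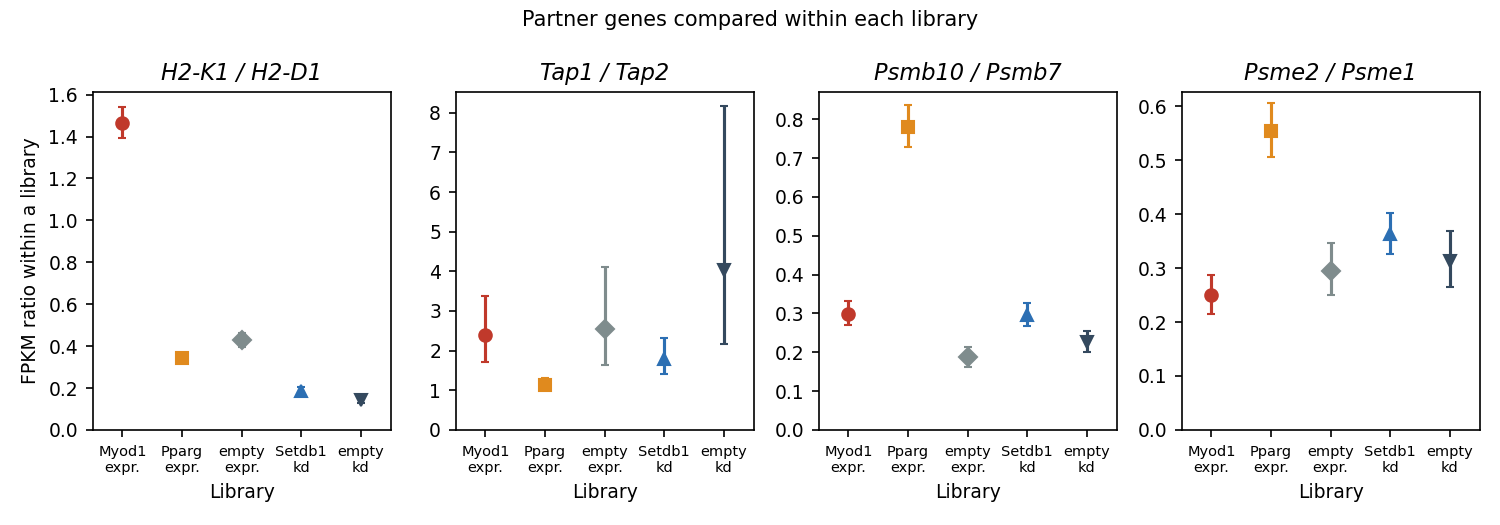
Within-library FPKM ratios of H2-K1 to H2-D1, Tap1 to Tap2, Psmb10 to Psmb7 and Psme2 to Psme1 in the 5 libraries, with 95% counting intervals. The Psmb10 to Psmb7 ratio is highest with Pparg (78.1%) and the H2-K1 to H2-D1 ratio is highest with Myod1 (1.47).

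Nlrc5 was detected at a low level. It had 32 reads with Myod1, 133 with Pparg, 10 in their control, 32 with the knockdown and 2 in its control, an FPKM of 0.240, 0.817, 0.0721, 0.204 and 0.0141. The ratio was 11.3 (5.97 to 24.2) with Pparg and 3.32 (1.59 to 7.58) with Myod1. With the knockdown it was 14.5 (3.69 to 125), which rests on the 2 reads of the control, and against the empty expression vector it was 2.82 (1.35 to 6.44). No log2 ratio of FPKM + 1 for Nlrc5 reached 1.

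Across the 7 compared genes, the median log2 ratio was 0.42 with Myod1, 1.60 with Pparg and 0.95 with the knockdown, beside medians of 0.02, -0.02 and 0.0049 over all genes. Over all 10 it was 0.27, 1.06 and 0.63. With Myod1 the division by FPKM sums moved the median of all genes to -0.26, and the share of higher genes among those changed from 65.0% to 39.4%, or to 52.7% with scaling to the 75th percentile (median -0.11). Between the controls the median of the 7 was -0.23. Melanocyte markers were lower with Myod1 and Pparg, 5 of 7 by at least 2-fold in each, where 7.55% and 2.30% of all genes were, and their part in the class I values was not tested.

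Peptide supply was described by a list of 11 further genes. With Pparg 1 was higher and 1 lower (6.52% of all genes changed), with the knockdown 2 and 1 (19.7%), and with Myod1 0 and 1 (21.6%). The counts for the knockdown and Myod1 are near those shares. Psme2, a subunit of the proteasome activator PA28, had an FPKM of 8.33 with Myod1, 20.6 with Pparg, 6.49 in their control, 14.8 with the knockdown and 6.27 in its control. It was 3.17-fold (2.69 to 3.74) higher with Pparg and 2.36-fold (1.99 to 2.81) with the knockdown. Its partner Psme1 was at 2.04 times the control with the knockdown and missed the limit at a log2 ratio of 0.99. Psme3, a nuclear activator that is not induced by interferon, was lower with the knockdown, with an FPKM of 30.9 against 117. Tapbpl, a relative of tapasin, was 4.51-fold (3.58 to 5.73) higher with the knockdown. Calr, the chaperone calreticulin, was lower with Myod1 (229 against 473) and Pparg (220.3 against 473), although against the other control neither passed the limit.

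Of 21 other class I heavy chain genes in the table, 8 could be compared. With Pparg 3 were higher, where 4.22% of all genes were, and with the knockdown 3, where 9.34% were. With Myod1 1 was lower, where 7.55% of all genes were. H2-T23, which encodes the Qa-1 chain bound by an NK cell receptor, had an FPKM of 1.17 with Myod1, 4.01 with Pparg, 0.551 in their control, 6.79 with the knockdown and 0.248 in its control. It was 7.28-fold (4.84 to 11.4) higher with Pparg and 27.3-fold (15.5 to 53.4) with the knockdown, the latter over 12 reads in the control. Against the other control the ratios were 16.1 (9.06 to 31.7) and 12.3 (8.27 to 19.1). H2-Q4 was 2.57-fold higher with Pparg, or 4.89-fold against the other control. H2-K2 was 11.1-fold (5.84 to 23.8) higher with the knockdown, or 3.10-fold (2.12 to 4.65) against the other control. Fcgrt, the neonatal Fc receptor, was 2.28-fold higher with Pparg and 4.08-fold with the knockdown, or 3.497-fold and 2.65-fold against the other control. Mr1, which presents vitamin B metabolites, was lower with Myod1 (1.32 against 4.71).

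Among the factors that bind the X and Y boxes (Rfx5, Rfxap, Rfxank, Creb1, Atf1, Nfya, Nfyb and Nfyc), 0 of 8 compared changed 2-fold in any comparison, where 21.6% of all genes changed with Myod1, 6.52% with Pparg and 19.7% with the knockdown, and Ciita, the class II transactivator, had an FPKM of at most 0.0547. Among interferon receptors and signalling genes, the transcription factors Irf1 (12.7 against 4.77) and Irf7 (3.03 against 0.178) were higher with Pparg. With the knockdown, Stat2 (9.75 against 1.84), a transcription factor of the type I interferon response, and Ifnar2 (15.9 against 7.31), a subunit of its receptor, were higher. With Myod1 0 of the 15 compared changed 2-fold. All 7 interferon ligand genes on the list had 0 reads in every library. Of 6 nucleic acid sensors and adaptors compared, Ddx58, which encodes the RNA sensor RIG-I, was higher with Pparg (20.6 against 4.85) and the knockdown (14.4 against 6.56), and Mb21d1, which encodes the DNA sensor cGAS, was lower with the knockdown (0.616 against 2.75). The call for Mb21d1 was lost against the other control (log2 ratio -0.66). Of 6 NF-kappaB genes compared, 2 were higher with Pparg (4.22% of all genes), 3 with the knockdown (9.34%) and 0 with Myod1 (14.0%). Against both controls the counts were 2, 1 and 0. Relb, a non-canonical NF-kappaB subunit, was higher with Pparg (17.5 against 6.98) and the knockdown (20.6 against 3.65), as was the inhibitor Nfkbia (23.6 against 9.35, and 18.0 against 7.65), and Nfkb2, the partner of Relb, was higher with the knockdown (49.8 against 20.7). In the knockdown only Relb kept its call against the other control, where the log2 ratio was 0.80 for Nfkb2 and 0.88 for Nfkbia.

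Of 16 interferon-stimulated genes compared, 12 were higher with Pparg, where 4.22% of all genes were, and 8 of them against both controls, where 3.34% were. Their median log2 ratio was 1.96, or 1.02 against the other control. Oasl2, among the 12, passed the level filter only through the Pparg and knockdown libraries. With the knockdown Isg15 and Usp18 were higher (9.34% of all genes) and Ifit2 was lower (10.3%), counts near those shares. Their median was 0.38, or 0.72 against the other control, and Usp18 lost its call there (log2 ratio 0.54). With Myod1 Igtp alone was higher, where 14.0% of all genes were (median -0.02, or -0.65 against the other control). The controls differed in 4 of these genes, Isg15, Ifit1, Ifit3 and Cxcl10, all higher with the empty knockdown vector, where 1.23% of all genes were. H2-K1 was lower there. Class II genes were mostly low: 3 of 9 could be compared, and 2, H2-Aa and H2-Ob, had no read in any library. Cd74 and H2-DMa were higher with the knockdown (5.75 against 0.594, and 4.25 against 0.656). Cd74, the invariant chain, was also higher with Pparg (1.66 against 0.304), from 45 and 7 reads, but not against the other control (log2 ratio 0.74).

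**Figure D4:**
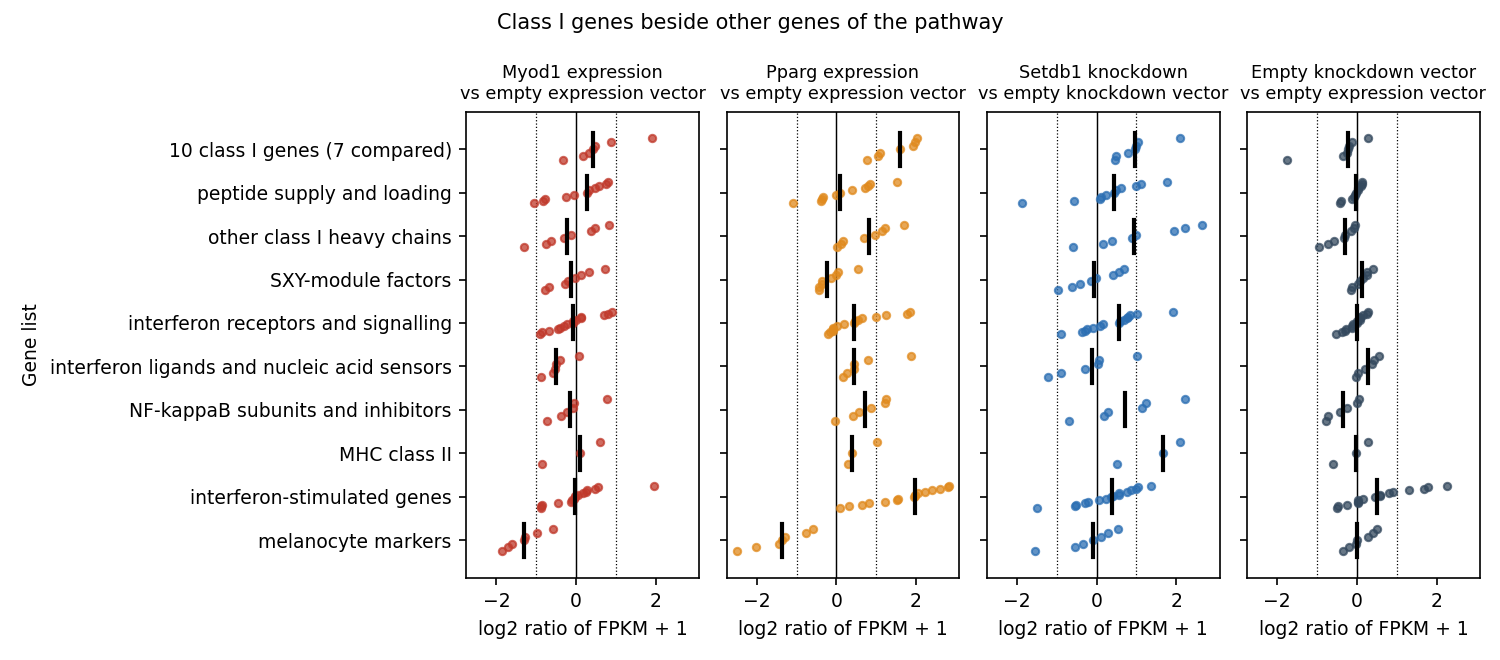
Log2 ratio of FPKM + 1 to the control for each compared gene, by list, with the list median as a black bar and dotted lines at 1 and -1. With Pparg the medians of the 7 class I genes (1.60) and of the interferon-stimulated genes (1.96) are above the line, and the X and Y box factors lie between the lines.

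The genes whose pattern over the 5 libraries was nearest to the mean of the 7 compared genes, by Euclidean distance of log2(FPKM + 1) centred over the 5 libraries, were Fblim1 (0.256), Gm12473 (0.289), Tspo (0.299), Pold4 (0.302) and Azin2 (0.326). With so few libraries the measure separates genes weakly. The 7 genes themselves, each of which enters that mean, lay between 0.188 (Tap1) and 2.27 (H2-K1) from it.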

How the data were processed

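RNA was sequenced in 5 libraries of B16F10 cells, 1 per group. The authors deposited 1 table of FPKM values for 54699 genes, with a gene length column (other than a measurement of expression) and positions. CASAVA, HISAT2, featureCounts 1.5.0-p3 and GRCm38 are named in the submitters' processing notes, and the libraries were made with the NEBNext Ultra kit per the labels' protocols. The strand setting and the normalization are not given in the sources used here. The product of value and gene length rose in equal steps within each library (all products within a tolerance of 0.01), and dividing by the step gave the reads per gene. The divisor was between 0.859 and 1.10 times the recovered reads, so the deposited values were already scaled between libraries.

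Genes reaching an FPKM of 1 in any library entered the log2 ratios, which had a pseudocount of 1, and the limit was 2-fold. Intervals at 95% are Wilson for levels and exact Clopper-Pearson for ratios, and 0 reads were read as up to 3 reads. Alternatives were a pseudocount of 0.1, no filter, a mean FPKM filter, a 4-fold limit, 3 other scalings and the other control. Added after the data were seen were both controls together, centring in 20 GC bins (12679 genes with a GC value) and values under 3 reads set to 3. Identifiers shared with GENCODE M21 numbered 54409, of which 53499 had the same position. Of the 10 class I genes, 7 had the same position. GC values and shared stretches were taken from M21. All 10 class I genes are named, with the genes of short lists, those changed 2-fold, and the 5 most alike. The genes and lists were chosen with earlier results of these data known. Python 3.11.15, pandas 2.3.3, numpy 2.4.6 and scipy 1.17.1 were used, and the code was tested on simulated data. Values of some genes on the lists are not reported here.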

Additional observations from a re-analysis of the deposited data

How the results depend on the processing

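Across the alternatives, 125 of 189 values of single class I genes moved by less than their counting interval, 5 changed sign and 10 crossed the 2-fold limit. H2-K1 in the Setdb1 knockdown reversed with the other control, at -0.71. With the 4-fold limit the counts of genes changed became 0 for Myod1, 1 for Pparg, 1 for the knockdown and 0 between the controls. For the knockdown the count of 2 became 1 with FPKM sums, the 75th percentile, GC bins, the other control or both controls, and 4 with a pseudocount of 0.1 or the floor of 3 reads, when Tap1 and Tap2 passed. Between the controls the floor gave 2. The median for Myod1 was 0.76 with a pseudocount of 0.1, 0.18 with FPKM sums, 0.26 with the 75th percentile, 0.59 with the other control, 0.25 with GC bins and 0.82 with the floor. For Pparg it was 2.04 with a pseudocount of 0.1, 1.06 without a filter, 1.83 with the other control and 2.05 with the floor. For the knockdown it was 1.15, 0.63, 0.72 and 1.16 in the same order, and 0.65 with GC bins. Over all genes, a pseudocount of 0.1 raised the number changed from 2768 to 4044 with Myod1, from 837 to 1729 with Pparg, from 2526 to 4027 with the knockdown and from 343 to 952 between the controls. No paired analysis was possible because each group had 1 library. Depth limits Psmb8, Psmb9, Nlrc5 and Tap2, which rest on few reads.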

Other observations

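Genes around the class I genes were looked at after the values were seen. Within 100 kb of H2-K1, 0 of 15 compared neighbours changed 2-fold with Myod1 or with Pparg, or between the controls, while 5 were higher with the Setdb1 knockdown: Col11a2, H2-K2, Ring1, Slc39a7 and Zbtb22 (median log2 ratio of the 15 neighbours, 0.55), where 9.34% of all genes were. Around Tapbp, whose window shares genes with that of H2-K1, 4 of 18 neighbours were higher with the knockdown and 1 was lower, 2 were higher with Myod1 (Cd320 and Ndufa7) and 1 with Pparg (Ndufa7). Around Tap1, 2 of 4 neighbours were higher with the knockdown (median 0.94). Around H2-D1, 2 of 8 were higher and 1 lower with the knockdown (median -0.24), 1 was lower with Myod1, 1 was higher and 1 lower with Pparg, and 2 were higher with the empty knockdown vector than with the empty expression vector. Those 2, Gm25128 and Mir6975, are also among the 3 that changed with the knockdown. Over all genes, 14.0% were higher and 7.55% lower with Myod1, 4.22% and 2.30% with Pparg, 9.34% and 10.3% with the knockdown, and 1.23% and 1.44% between the controls.

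Of the 27 genes with the spaced X2 half-site and Y box, 14 that are not among the class I genes described could be compared. With Pparg 0 of them changed 2-fold (median -0.21), with Myod1 1 was lower (median -0.26), and with the knockdown 3 were higher and 1 lower (median 0.25). Of these 3, Nfe2l1 lost its call against the other control (FPKM 98.7 against 81.2). The same shares over all genes apply to these counts.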
